A study of Mus musculus with 12 samples.

Results

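Costimulatory receptors give T cells the signal that accompanies recognition of antigen, and 10 genes that encode such receptors were described here in tumor-infiltrating CD8+ T cells sorted by a reporter of the adenosine receptor gene Adora2a. The members were taken by name from the 52636 Ensembl genes of the count table. Icos, Cd28, Cd226 and Cd2 belong to the immunoglobulin superfamily. Cd27, Tnfrsf4 (OX40), Tnfrsf9 (4-1BB), Tnfrsf18 (GITR), Tnfrsf1b (TNFR2) and Tnfrsf14 (HVEM) belong to the TNF receptor superfamily.

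The cells came from A2AR eGFP reporter mice, which carry eGFP at the start codon of Adora2a in a bacterial artificial chromosome, so that GFP reports transcription from a transgene rather than receptor protein. All mice were female, on a C57BL/6 background, between 6 and 16 weeks of age, and had received 500000 AT3ova cells under the skin, a mouse mammary carcinoma line that expresses ovalbumin. They were either non-treated or given anti-PD-L1 at days 14 and 18, and CD8+ GFP+ and CD8+ GFP- cells were sorted at day 21. The 4 groups (non-treated GFP+, non-treated GFP-, anti-PD-L1 GFP+ and anti-PD-L1 GFP-) had 3 libraries each, every library being a pool of 3 mice, so that p-values measure the spread between pools. Reads were taken from the 3′ ends of transcripts.

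Total counts ranged from 11292699 to 19023900 per library. KT13 (non-treated GFP+) and KT21 (anti-PD-L1 GFP+) stood apart. Their median Spearman correlations with the other libraries were 0.941 and 0.935, against 0.967 to 0.977 for the others. Fold changes of the members in comparisons that include them are therefore given also for the 10 libraries without them, while CPM values are those of the 12-library scaling. Adora2a, which the sort follows, was 1.52 higher on the log2 scale in GFP+ than in GFP- cells averaged over the treatments (SE 0.138, adjusted p = 0.000365, edgeR quasi-likelihood test), and 1.40 higher over 10 libraries (adjusted p = 5.21e-07). Throughout, "called" means an adjusted p under 0.05 over all genes tested, and CPM is the count of a gene relative to the TMM-scaled total of its library, in the usual per-million unit. Where libraries of different groups are said not to overlap, this only describes the values. The share of all genes that separate in the same way was not counted.

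CD28 and ICOS are close relatives that can both recruit PI3-kinase to a short tyrosine motif in their cytoplasmic tails. CD28 is present on resting T cells, whereas ICOS appears after activation. CD226 and CD2 act also as adhesion receptors, binding CD155 and CD48 on the partner cell. The TNF receptor superfamily members recruit TRAF adaptors and activate NF-kappaB, which sustains survival and effector function. CD27 is present on naive and memory T cells, while OX40, 4-1BB and GITR rise on T cells that have met antigen.

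The motif that couples ICOS and CD28 to PI3-kinase is shown because these receptors share it, while below Icos had the clearest difference of the members and Cd28 varied little. The stretches are 60 coding bases of the reference transcripts (GENCODE M21, mm10), both on the plus strand within a single exon, at chr1:60995536-60995595 for Icos and chr1:60769669-60769728 for Cd28. Capitals mark the codons for tyrosine, methionine, any residue and methionine.
Icos: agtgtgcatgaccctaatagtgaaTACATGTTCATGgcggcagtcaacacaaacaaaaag
Cd28: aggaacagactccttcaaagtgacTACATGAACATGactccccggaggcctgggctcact
Of the 12 motif bases, the codon that varies differs between the genes, TTC in Icos and AAC in Cd28.

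Both genes lie in 1 cluster on chromosome 1 (mm10), Cd28 at chr1:60716800-60773359 and Icos at chr1:60977927-61000320, 205 kb apart. Of the others, 5 lie on chromosome 4: Tnfrsf1b at chr4:145213463-145246870, Tnfrsf9 at chr4:150914562-150946102, Tnfrsf14 at chr4:154921933-154928563, Tnfrsf4 at chr4:156013843-156016612 and Tnfrsf18 at chr4:156026164-156028895. Tnfrsf4 and Tnfrsf18 are 9.55 kb apart. Cd2 lies at chr3:101275899-101287939, Cd27 at chr6:125232622-125237010 and Cd226 on chromosome 18. Counting is on annotated exons, and 414 of the 1524 exonic bases of Tnfrsf18 are shared with the antisense gene Gm16008, which itself had 0 to 6 counts per library against 2355 to 4392 for Tnfrsf18. The strand setting of the counting is not given in the sources used here, so for reads within the shared bases these 2 genes cannot be told apart. Cd27 shares 129 of 2328 exonic bases with the microRNA gene Mir8113, whose count was not used here.

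All 10 genes passed the filter on low counts, but at different margins. Tnfrsf14 had 0 to 13 counts per library and passed only through a few libraries, whereas the lowest count of the other 9 in any library was 186, for Cd226 in KT13. With the filter on low counts named above, no member was called by edgeR over all 12 libraries in any of the comparisons. The shares of all 14173 genes called there were 0.00706% for GFP+ against GFP- in non-treated cells and 0.0282% in anti-PD-L1 cells. For the effect of anti-PD-L1 they were 0.0141% in GFP+ cells and 0% in GFP- cells. In these 4 comparisons 1, 2, 3 and 0 members had an unadjusted p under 0.05, where 6.05%, 4.08%, 6.74% and 3.44% of all genes did. DESeq2 called 1 member, Icos, in the first and in the third of these comparisons, where it called 0.374% and 0.697% of genes. Over the 10 libraries edgeR called 0, 0, 1 and 0 members, the 1 being Icos again, where 0.339%, 0.17%, 0.563% and 0.373% of 14747 genes were called.

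**Figure D1:**
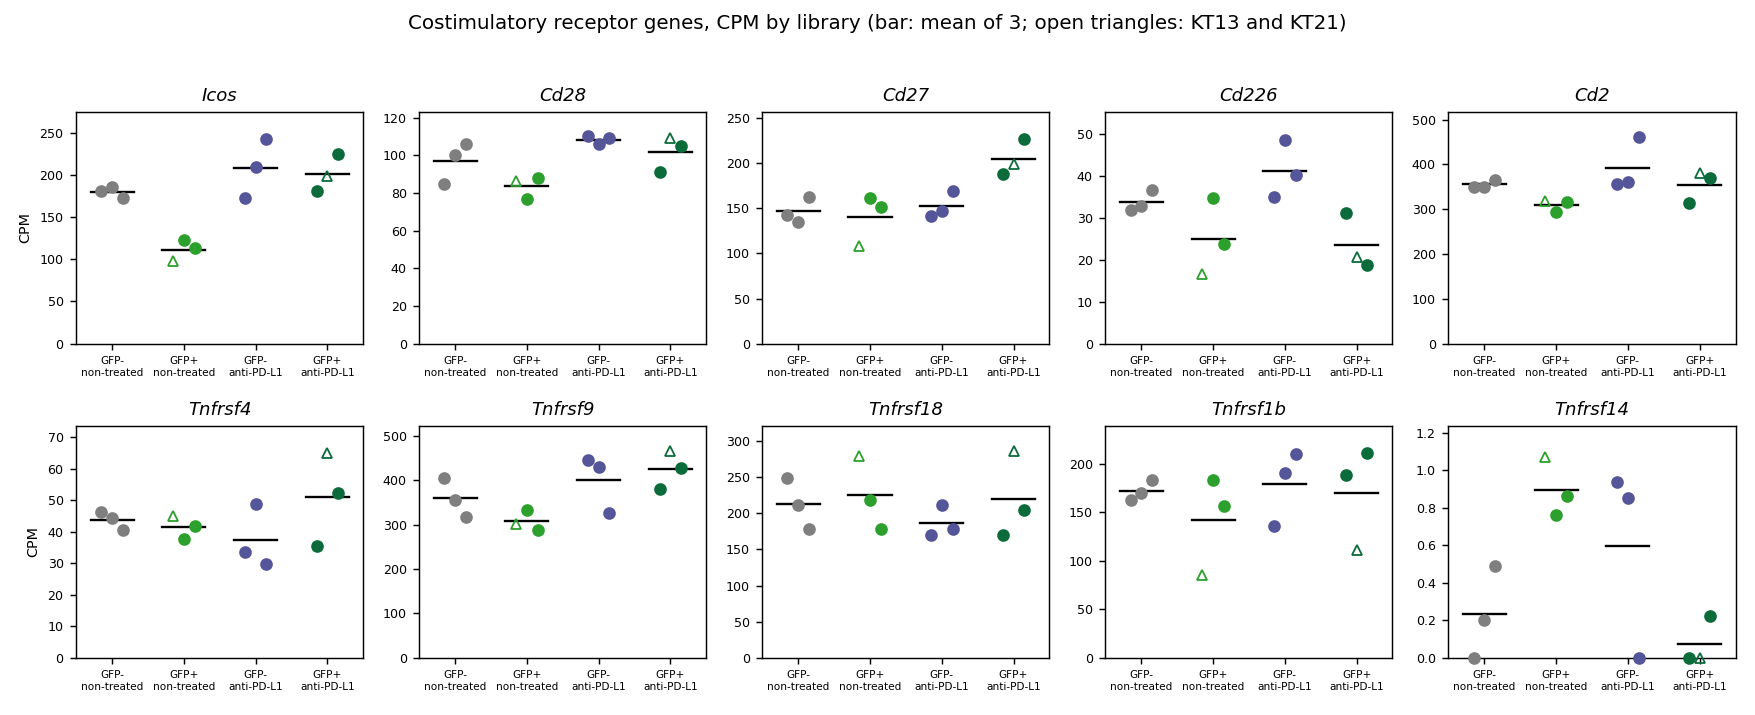
CPM of the 10 costimulatory receptor genes (vertical axes, linear and from 0) in each of 12 libraries, by group. Points are libraries, bars are means of 3 libraries, and open triangles are KT13 and KT21. For Icos the 3 non-treated GFP+ libraries (98.4 to 123 CPM) lie below all 9 others (172 to 242 CPM).

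Icos, the inducible receptor for ICOS ligand, had the clearest pattern. Its level was 98.4, 123 and 113 CPM in the non-treated GFP+ libraries KT13, KT15 and KT17, and 181, 186 and 172 CPM in the non-treated GFP- libraries KT14, KT16 and KT18. After anti-PD-L1 it was 181, 198 and 225 CPM in the GFP+ libraries KT19, KT21 and KT23 and 172, 209 and 242 CPM in the GFP- libraries KT20, KT22 and KT24. Every non-treated GFP+ library was below every other library, and the 3 other groups overlapped. The order of the group means was anti-PD-L1 GFP- (208 ± 35.0 CPM, SD, n = 3), anti-PD-L1 GFP+ (202 ± 22.2), non-treated GFP- (180 ± 7.07) and non-treated GFP+ (111 ± 12.3).

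Within GFP+ cells Icos was 0.86 higher after anti-PD-L1 than without it on the log2 scale (SE 0.161, 95% interval 0.51 to 1.20), with an adjusted p of 0.0946 in edgeR's quasi-likelihood test, which missed the threshold. Without KT13 and KT21 the difference was 0.79 (SE 0.151, adjusted p = 0.00967, edgeR), past the threshold. Leaving out KT21 alone gave 0.87 with an adjusted p of 0.049, and leaving out any other single library gave no call. With all 12 libraries kept, it was called by edgeR with no filter beyond 1 count (0.86, adjusted p = 0.00477, 0.466% of 26418 genes called) and by DESeq2 (0.86, adjusted p = 0.000937). Over 19 alternatives the difference ranged from 0.77 to 0.93, with adjusted p from 0.000164 to 0.752.

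Within non-treated cells Icos was 0.69 lower in GFP+ than in GFP- on the log2 scale (log2 fold change -0.69, SE 0.161, unadjusted p = 0.000743, adjusted p = 0.316, edgeR). Without KT13 and KT21 it was 0.61 lower (-0.61, SE 0.14, adjusted p = 0.0596), and DESeq2 over 12 libraries called it at -0.68 (adjusted p = 0.0264). Of 19 alternatives only the 2 fits by DESeq2 called this difference. Over these alternatives it ranged from -0.77 to -0.61, with adjusted p from 0.00442 to 0.993 (edgeR or DESeq2). This difference and that made by anti-PD-L1 within GFP+ cells share the non-treated GFP+ libraries, so they are not independent of each other. After anti-PD-L1 the log2 fold change of GFP+ against GFP- was -0.04 (95% interval -0.39 to 0.30), and -0.03 over 10 libraries (-0.31 to 0.25). In GFP- cells, which include neither library, Icos was 0.21 higher after anti-PD-L1 (95% interval -0.14 to 0.55, adjusted p = 1 in edgeR).

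The test of whether the treatment difference itself differed between GFP+ and GFP- cells gave 0.65 for Icos (SE 0.227, unadjusted p = 0.0125, adjusted p = 1, edgeR), and 0.58 over 10 libraries (SE 0.194, unadjusted p = 0.00676, adjusted p = 1). No gene passed the adjusted threshold for this interaction in either set, and DESeq2 called 0. Over 12 libraries 295 of 14173 genes (2.08%) and 2 members, Icos and Tnfrsf14, had an unadjusted p under 0.05. Tnfrsf14, with at most 13 counts in any library, had an unadjusted p of 0.0456 there and 0.127 over 10 libraries (edgeR). Over 10 libraries Icos was the 1 member with an unadjusted p under 0.05, and the share of all genes with such a p is not given for that set. Averaged over GFP, Icos was 0.53 higher after anti-PD-L1 (SE 0.114, adjusted p = 0.0712), and 0.50 higher over 10 libraries (SE 0.0972, adjusted p = 0.00599), where 1.36% of genes were called. DESeq2 over 12 libraries called this difference as well (0.53, adjusted p = 0.00201, 1.3% of genes called), as did edgeR without KT21 (0.54, adjusted p = 0.044). Of 18 alternatives 5 called it and the rest did not, with values from 0.48 to 0.60 and adjusted p from 0.000165 to 0.228 (edgeR or DESeq2).

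**Figure D2:**
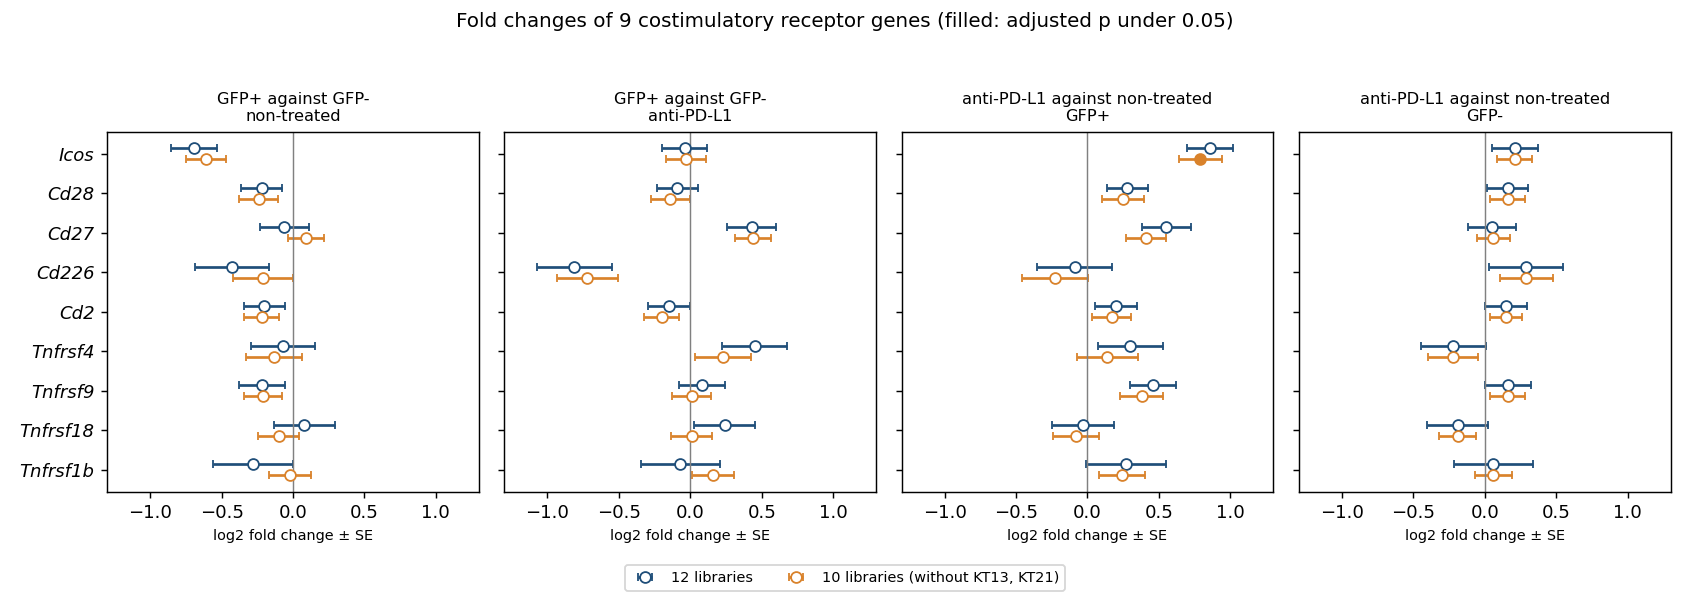
Log2 fold changes of 9 costimulatory receptor genes (horizontal axes, with the SE as bars) in 4 comparisons, over 12 libraries (blue) and over 10 libraries (orange). Filled points are called at an adjusted p under 0.05, and only Icos over 10 libraries, for anti-PD-L1 within GFP+ cells (0.79), is filled. Tnfrsf14 is left out because several of its libraries had 0 counts.

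The genes whose profile over the 12 libraries lay nearest to that of Icos, by the root mean square difference of centred log2(CPM + 0.5) values among 14173 genes, were Ctla2a (0.124), Cd8a (0.154) and Klrc2 (0.157). Cd8a encodes the alpha chain of the CD8 coreceptor by which the cells were sorted. It was 831, 860 and 799 CPM in non-treated GFP+ libraries and 1090 to 1190 CPM in non-treated GFP- libraries. With anti-PD-L1 it reached 1150 to 1340 CPM in GFP+ and 1280 to 1360 CPM in GFP- libraries. Within GFP+ cells Cd8a was 0.60 higher after anti-PD-L1 on the log2 scale (SE 0.121, adjusted p = 0.0946, edgeR) and 0.55 higher over 10 libraries (adjusted p = 0.0103). Ctla2a was 158 to 188 CPM in non-treated GFP+ libraries and 233 to 345 CPM in the 9 others. Klrc2, which encodes an NKG2 family receptor, was 448 CPM in KT13 and 663 to 1370 CPM in the others, so its groups overlapped. Ctla2a and Klrc2 have close paralogs, and how reads matching several genes were counted is not given in the sources used here.

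**Figure D3:**
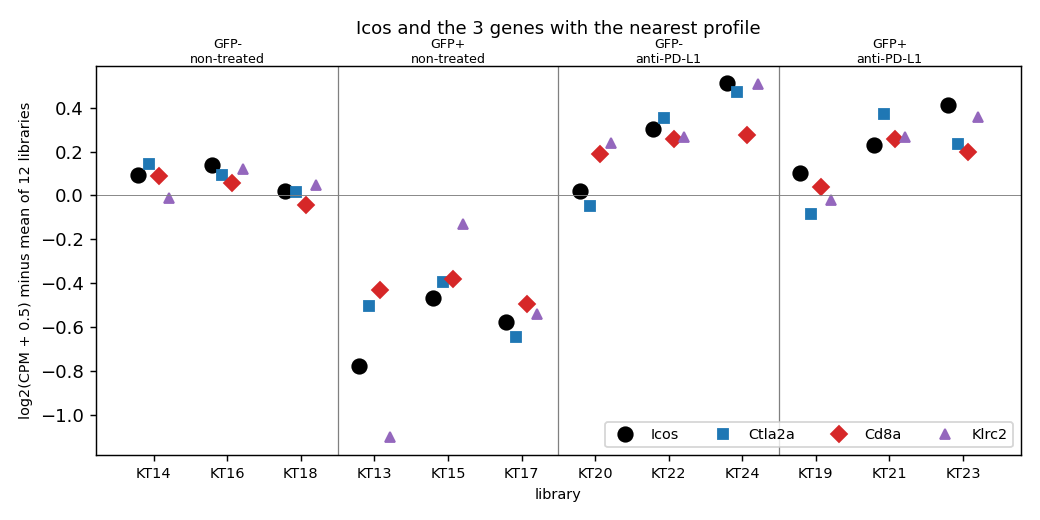
Icos, Ctla2a, Cd8a and Klrc2 in each of 12 libraries, as log2(CPM + 0.5) minus the gene's mean over the 12 libraries (vertical axis). Libraries are grouped along the horizontal axis. All 4 genes lie below their mean in the 3 non-treated GFP+ libraries. Ctla2a, Cd8a and Klrc2 were picked for their likeness to Icos over these same libraries, so the shared pattern follows from the choice.

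Cd28, the constitutive receptor for CD80 and CD86, varied little. It was 86.1, 76.7 and 87.9 CPM in non-treated GFP+ libraries, 84.6, 100 and 106 CPM in non-treated GFP-, 91.0, 109 and 105 CPM in anti-PD-L1 GFP+ and 110, 106 and 109 CPM in anti-PD-L1 GFP- libraries. The anti-PD-L1 GFP+ libraries were all above the non-treated GFP+ ones, with a log2 fold change of 0.28 (95% interval -0.03 to 0.59, adjusted p = 0.776, edgeR), and 0.25 over 10 libraries (-0.05 to 0.56). The log2 fold change of GFP+ against GFP- was -0.22 in non-treated (95% interval -0.53 to 0.09) and -0.09 in anti-PD-L1 cells (-0.40 to 0.22). Over 10 libraries these were -0.24 (-0.52 to 0.04) and -0.14 (-0.42 to 0.14), and the anti-PD-L1 GFP+ libraries then no longer overlapped the GFP- ones. The pooled SD within groups was 0.12 on the log2 scale.

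Cd226 encodes the activating receptor for CD155, for which TIGIT and CD96 compete. It was 16.6, 34.7 and 23.9 CPM in non-treated GFP+ libraries, against 31.9, 32.8 and 36.7 CPM in non-treated GFP-. After anti-PD-L1 it was 31.2, 20.7 and 18.8 CPM in GFP+ and 34.9, 48.6 and 40.2 CPM in GFP- libraries. The GFP+ and GFP- libraries overlapped without treatment and did not overlap after anti-PD-L1. There the log2 fold change of GFP+ against GFP- was -0.81 (SE 0.260, unadjusted p = 0.00784, adjusted p = 0.882, edgeR), and -0.72 over 10 libraries (adjusted p = 0.342). In non-treated cells it was -0.43 (95% interval -0.99 to 0.13), and -0.21 over 10 libraries (-0.64 to 0.23), KT13 being 0.78 below the mean of its group-mates. When single libraries were left out there, it ranged from -0.74 (without KT15) to -0.21 (without KT13), with no call. Averaged over the treatments it was -0.62 (SE 0.184, adjusted p = 0.318), and -0.46 over 10 libraries (adjusted p = 0.196), in a comparison where edgeR called 0.31% of genes and 8.18% had an unadjusted p under 0.05 (1.08% called over 10 libraries). With no filter beyond 1 count this averaged difference was called (-0.62, adjusted p = 0.0263), where edgeR called 0.772% of 26418 genes.

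Cd2, the adhesion receptor for CD48, was 318, 293 and 316 CPM in non-treated GFP+ and 350, 350 and 366 CPM in non-treated GFP- libraries, which did not overlap. In anti-PD-L1 mice it was 314, 380 and 369 CPM in GFP+ and 356, 361 and 461 CPM in GFP- libraries, which overlapped. The log2 fold changes of GFP+ against GFP- were -0.20 (95% interval -0.51 to 0.11) and -0.15 (-0.46 to 0.16), and -0.22 (-0.48 to 0.03) and -0.20 (-0.46 to 0.05) over 10 libraries, and none was called. All 4 immunoglobulin superfamily members thus had negative log2 fold changes of GFP+ against GFP- in both treatments, with medians of -0.32 and -0.12 over 12 libraries and -0.23 and -0.17 over 10, against 0 over all genes. The sign was not stable for Icos after anti-PD-L1, where -0.04 became 0.03 without KT19 and 0.10 without KT24. By edgeR 0 of 4 were called in either treatment over 12 or 10 libraries, and DESeq2 called 1 of them, Icos, in non-treated cells, as given above. For the 6 TNF receptor superfamily members the medians were -0.07 and 0.16 over 12 libraries, with 2 and 4 of 6 positive. Over 10 libraries these medians were -0.06 and 0.08.

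Cd27, the receptor for CD70, was 108, 161 and 151 CPM in non-treated GFP+ and 143, 135 and 162 CPM in non-treated GFP- libraries, which overlapped. After anti-PD-L1 it was 188, 199 and 227 CPM in GFP+ and 141, 147 and 169 CPM in GFP- libraries. The anti-PD-L1 GFP+ libraries were thus above all 9 others, and the 3 other groups overlapped, but how many of all genes separate like this was not counted. The log2 fold change of GFP+ against GFP- after anti-PD-L1 was 0.43 (SE 0.171, unadjusted p = 0.0255, adjusted p = 0.993, edgeR), and 0.44 over 10 libraries (SE 0.128, adjusted p = 0.295). The difference made by anti-PD-L1 within GFP+ cells was 0.55 (SE 0.171, unadjusted p = 0.00655, adjusted p = 0.458), and 0.41 over 10 libraries (adjusted p = 0.333). KT13 was 0.53 below the mean of its group-mates on the log2 scale.

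Tnfrsf9 encodes 4-1BB, which is induced by antigen receptor signals. It was 301, 334 and 289 CPM in non-treated GFP+ libraries and 380, 466 and 428 CPM in anti-PD-L1 GFP+ libraries, which did not overlap. This was a difference of 0.46 on the log2 scale (SE 0.161, unadjusted p = 0.0122, adjusted p = 0.518, edgeR), and 0.38 over 10 libraries (adjusted p = 0.434). The GFP- libraries, at 406, 355 and 317 CPM without treatment and 446, 430 and 326 CPM after it, overlapped, with a log2 fold change of 0.16 (95% interval -0.18 to 0.50). Averaged over GFP, the log2 fold changes for anti-PD-L1 were 0.31 for Tnfrsf9 (adjusted p = 0.472), 0.30 for Cd27 (adjusted p = 0.553) and 0.22 for Cd28 (adjusted p = 0.646), in a comparison where 0.395% of genes were called and 7.67% had an unadjusted p under 0.05. Over 10 libraries these were 0.27 (adjusted p = 0.230), 0.23 (adjusted p = 0.297) and 0.21 (adjusted p = 0.408), by edgeR.

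Tnfrsf4, which encodes OX40, was 44.9, 37.7 and 41.8 CPM in non-treated GFP+ and 46.2, 44.2 and 40.4 CPM in non-treated GFP- libraries. After anti-PD-L1 it spread more, at 35.5, 65.0 and 52.2 CPM in GFP+ and 33.5, 48.8 and 29.7 CPM in GFP- libraries. The highest value was in KT21, and GFP+ and GFP- libraries overlapped. The log2 fold change of GFP+ against GFP- after anti-PD-L1 was 0.45 (95% interval -0.04 to 0.93), and 0.23 over 10 libraries (-0.18 to 0.64). When single libraries were left out it ranged from 0.23 to 0.71, with no call.

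Tnfrsf18 encodes GITR and Tnfrsf1b encodes TNFR2, the receptor for TNF and lymphotoxin alpha, and the libraries that stood apart held the extreme values of both. Tnfrsf18 was 280, 218 and 179 CPM in non-treated GFP+, 249, 211 and 179 CPM in non-treated GFP-, 170, 286 and 205 CPM in anti-PD-L1 GFP+ and 170, 211 and 178 CPM in anti-PD-L1 GFP- libraries. KT13 and KT21 held its highest values, 0.50 and 0.62 above the mean of their group-mates on the log2 scale. Without them the log2 fold change of GFP+ against GFP- in non-treated cells went from 0.08 to -0.10 (95% interval -0.40 to 0.20), and in anti-PD-L1 cells from 0.24 to 0.01 (-0.29 to 0.31).

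Tnfrsf1b was 85.2, 183 and 157 CPM in non-treated GFP+, 163, 170 and 183 CPM in non-treated GFP-, 189, 111 and 211 CPM in anti-PD-L1 GFP+ and 136, 191 and 210 CPM in anti-PD-L1 GFP- libraries. Here KT13 and KT21 held the lowest values, with log2 differences from their group-mates of -0.99 and -0.84. Without them its pooled SD within groups went from 0.42 to 0.21. Leaving them out also moved the log2 fold change of GFP+ against GFP- from -0.28 to -0.02 in non-treated cells (95% interval -0.32 to 0.29) and from -0.07 to 0.16 in anti-PD-L1 cells (-0.14 to 0.46).

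Tnfrsf14, which encodes HVEM, the receptor for LIGHT and a partner of BTLA and CD160, was close to the limit of detection. It had 12, 12 and 13 counts in the non-treated GFP+ libraries KT13, KT15 and KT17, and 0, 4 and 8 counts in the non-treated GFP- libraries KT14, KT16 and KT18. After anti-PD-L1 it had 0, 0 and 3 counts in the GFP+ libraries KT19, KT21 and KT23, and 13, 12 and 0 counts in the GFP- libraries KT20, KT22 and KT24. A count of 0 allows up to 3 counts, or 0.17 to 0.227 CPM in these 4 libraries, which covers counting error only. No fold change is given, since 4 libraries had 0 counts and no library had more than 13, and no comparison was called (adjusted p of 0.744 or more in all of them, edgeR).

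Promoter windows were available for 6 of the 10 members (7 windows, 2 of them for Tnfrsf9). They are shown for Cd27 and Tnfrsf9, whose levels in GFP+ libraries did not overlap between the treatments. Of the windows of Tnfrsf9 the one with matches is printed, and the other held none of the letters searched. Tnfrsf14, with few counts, is not printed. The sequences are from RefSeq (GRCm38.p6), running from 250 bases before to 50 after a transcript start, at chr6:125236978-125237277 on the minus strand for Cd27 and chr4:150927749-150928048 on the plus strand for Tnfrsf9. Capitals mark matches on either strand to the letters searched.
Cd27: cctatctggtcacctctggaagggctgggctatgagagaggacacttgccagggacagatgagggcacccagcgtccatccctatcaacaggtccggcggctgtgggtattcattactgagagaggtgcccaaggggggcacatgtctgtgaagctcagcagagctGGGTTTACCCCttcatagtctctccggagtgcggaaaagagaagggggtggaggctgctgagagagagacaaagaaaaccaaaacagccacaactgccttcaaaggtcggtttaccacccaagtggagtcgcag
Tnfrsf9: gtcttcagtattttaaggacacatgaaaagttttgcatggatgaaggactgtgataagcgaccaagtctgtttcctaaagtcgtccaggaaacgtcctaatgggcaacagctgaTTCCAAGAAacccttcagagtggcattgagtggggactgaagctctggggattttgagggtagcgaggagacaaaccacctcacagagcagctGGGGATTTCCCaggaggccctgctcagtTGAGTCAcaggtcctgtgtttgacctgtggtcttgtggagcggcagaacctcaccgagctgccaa

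The letters searched were TGACGTCA, the cAMP response element bound by CREB, its partial site TGACG, TTCNNNGAA for STAT factors, GGG and CC separated by any 5 bases for NF-kappaB, and TGANTCA for AP-1. The whole cAMP element contains the partial one. The receptor encoded by Adora2a raises cAMP. Among the 7 windows, 0 held either cAMP motif, 3 held the STAT letters (Tnfrsf9, Tnfrsf18 and Tnfrsf1b), 4 held the NF-kappaB letters (Cd27, Tnfrsf9, Tnfrsf1b and Tnfrsf14) and 1 held the AP-1 letters (Tnfrsf9). Of all 32851 windows of the same length, 1.79%, 20.8%, 8.3%, 50.8% and 7.81% held these motifs in the order given. A match of letters is a description of the window and not evidence of binding.

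The ligands of the members were next compared, because T cells can express some of them. Of 13 ligand genes 10 were tested over 12 libraries and 1, Cd86, was called, lower in GFP+ cells averaged over the treatments. Over 10 libraries 3 of 11 were called in that comparison, Cd86, Tnf and Lta, all lower. The shares of all genes called lower there were 0.162% and 0.617%. Tnfsf18, the ligand of GITR, had 0 counts in all 12 libraries.

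Cd86, a ligand of CD28 and CTLA-4, was 30.7, 25.5 and 25.6 CPM in non-treated GFP+ and 39.8, 51.8 and 50.0 CPM in non-treated GFP- libraries. After anti-PD-L1 it was 26.9, 24.8 and 42.4 CPM in GFP+ and 45.1, 61.2 and 57.0 CPM in GFP- libraries. GFP+ and GFP- libraries did not overlap in either treatment. The averaged log2 fold change was -0.80 (SE 0.152, adjusted p = 0.0427, edgeR), and -0.77 over 10 libraries (adjusted p = 0.00324). When single libraries were left out it stayed between -0.92 and -0.73, but the adjusted p ranged from 0.0117 to 0.152 and passed the threshold in 2 of these 12 fits, those without KT21 and without KT23. Within non-treated cells alone Cd86 was -0.79 (adjusted p = 0.478, edgeR), and over 10 libraries it was called by edgeR (-0.89, adjusted p = 0.0473) and by DESeq2 (-0.89, adjusted p = 0.00545).

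Tnf encodes the ligand of TNFR2 and was 61.5, 30.8 and 39.6 CPM in non-treated GFP+ libraries, of which KT13 is the first, and 54.6 to 60.4 CPM in non-treated GFP- ones. Under anti-PD-L1 it was 34.3 to 36.8 CPM in GFP+ and 44.6 to 72.0 CPM in GFP- libraries. Its averaged log2 fold change of GFP+ against GFP- was -0.55 (adjusted p = 0.311, edgeR), and -0.72 over 10 libraries (SE 0.127, adjusted p = 0.00342). DESeq2 over 12 libraries did not call Tnf (-0.54, adjusted p = 0.152), while edgeR with no filter beyond 1 count did (-0.56, adjusted p = 0.0338). Leaving out single libraries gave no call for Tnf (adjusted p from 0.0572 to 0.753, edgeR). Lta, which encodes lymphotoxin alpha, had averaged values of -0.55 (adjusted p = 0.124) and -0.57 over 10 libraries (SE 0.136, adjusted p = 0.04), and DESeq2 called it over 12 libraries (-0.54, adjusted p = 0.0261). No fit without a single library called Lta (adjusted p from 0.12 to 0.416, edgeR).

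**Figure D4:**
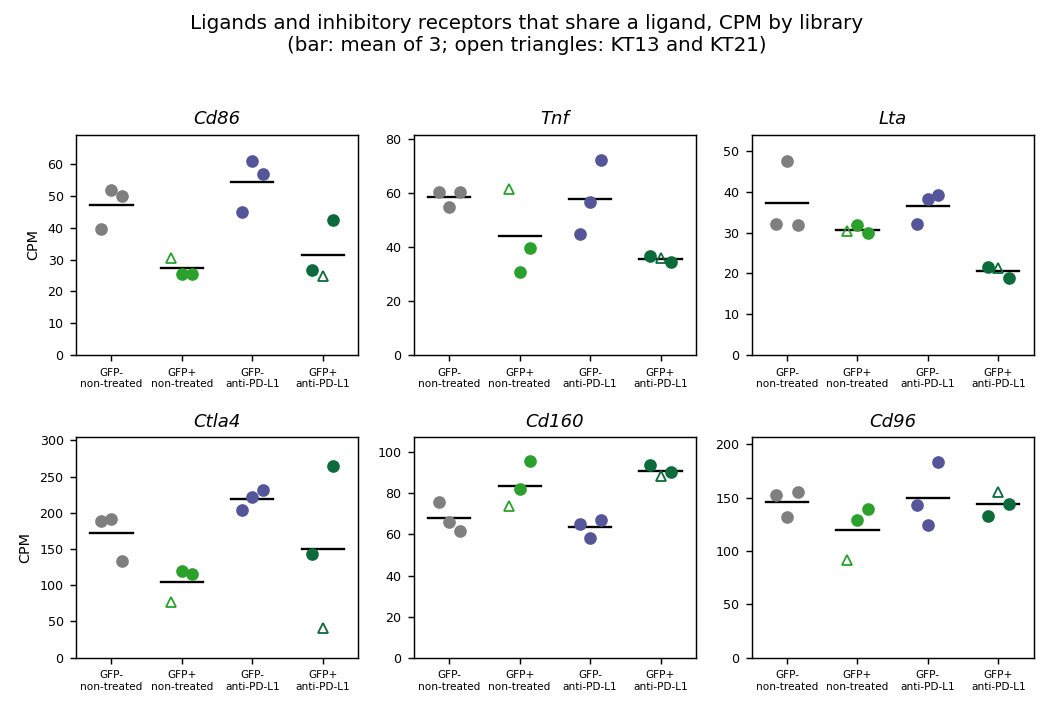
CPM (vertical axes, linear and from 0) of 3 ligands, Cd86, Tnf and Lta, and 3 inhibitory receptors, Ctla4, Cd160 and Cd96, in each of 12 libraries by group. Points are libraries, bars are means of 3, and open triangles are KT13 and KT21. Cd86 is lower in every GFP+ library than in every GFP- library of the same treatment, and KT21 holds the lowest Ctla4 value (40.7 CPM).

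Inhibitory receptors that compete with a member for a ligand, or that bind the member HVEM itself, were also measured. Of 6 such genes edgeR called 0 over 12 libraries. Cd160, which binds HVEM, was the 1 of them with an unadjusted p under 0.05 for GFP+ against GFP- averaged over the treatments (0.41, SE 0.105, unadjusted p = 0.00151, adjusted p = 0.184). It was called higher in GFP+ cells over 10 libraries (0.46, SE 0.0969, adjusted p = 0.0137) and by DESeq2 over 12 libraries (0.43, adjusted p = 0.0203), which called 1.11% of genes there. No fit without a single library called Cd160 (adjusted p from 0.122 to 0.447, edgeR). Ctla4, which binds CD80 and CD86 in competition with CD28, was 40.7 CPM in KT21 and 77.4 to 265 CPM in the other 11 libraries. It was 77.4 to 119 CPM in non-treated GFP+ and 134 to 192 CPM in non-treated GFP- libraries, which did not overlap. After anti-PD-L1 it was 40.7 to 265 CPM in GFP+ and 204 to 232 CPM in GFP- libraries, which overlapped. Neither GFP comparison was called by edgeR over 12 or 10 libraries. Averaged over GFP it was 0.44 higher after anti-PD-L1 (adjusted p = 0.857, edgeR, and 0.935 by DESeq2), and without KT13 and KT21 it was called by edgeR (0.57, SE 0.129, adjusted p = 0.0218) but not by DESeq2 (0.57, adjusted p = 0.104). Leaving out KT23 alone gave 0.09 (adjusted p = 1, edgeR). Cd96, the competitor of CD226, was 91.6 to 139 CPM in non-treated GFP+ and 132 to 155 CPM in non-treated GFP- libraries, with a log2 fold change of -0.29 (adjusted p = 0.892), and -0.13 over 10 libraries (adjusted p = 0.844).

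Other costimulatory receptors of T cells, 12 genes that include SLAM family members, gave 0 calls in each of the 4 comparisons by edgeR over 12 and over 10 libraries. Ly9, a SLAM family receptor, was 0.71 higher on the log2 scale in GFP+ than in GFP- non-treated cells without passing the test (SE 0.225, adjusted p = 0.596, and 0.70 with an adjusted p of 0.236 over 10 libraries). Slamf1 was 0.67 higher after anti-PD-L1 in GFP+ cells (SE 0.218, adjusted p = 0.471, and 0.70 with an adjusted p of 0.382 over 10 libraries). Crtam had the smallest unadjusted p of this list over 12 libraries, 0.00655, for anti-PD-L1 averaged over GFP (0.40, adjusted p = 0.323), and over 10 libraries it was 0.46 (adjusted p = 0.0666).

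Downstream of the receptors, 16 genes of TRAF and NF-kappaB signalling and 16 genes of PI3-kinase and proximal signalling were all tested. The second list includes Pdk1, whose product is a kinase of pyruvate metabolism. Of the first list 0 were called in either set by edgeR, the smallest unadjusted p over 12 libraries being 0.00964 for Traf1 (-0.47 in GFP+ against GFP- averaged over the treatments, adjusted p = 0.407, and -0.30 with an adjusted p of 0.278 over 10 libraries). Of the second list 0 were called over 12 libraries, and Grap2, which encodes the adaptor GADS that binds CD28, was called lower in GFP+ cells over 10 libraries (-0.49, SE 0.11, adjusted p = 0.0223), against -0.40 over 12 (adjusted p = 0.333). DESeq2 over 12 libraries did not call Grap2 (-0.38, adjusted p = 0.207). No fit without a single library did either (adjusted p from 0.144 to 0.783, edgeR). In the 4 comparisons the medians of these lists lay between -0.15 and 0.07 over 12 libraries and between -0.11 and 0.12 over 10, where the medians over all genes were -0.01 or 0.

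In bulk libraries, fewer cells of a type and less RNA per cell cannot be told apart. Marker levels moved along with the groups. The 7 T cell markers summed to 3250 to 3980 CPM in non-treated GFP+, 3880 to 4140 CPM in non-treated GFP-, 3970 to 5380 CPM in anti-PD-L1 GFP+ and 4510 to 4650 CPM in anti-PD-L1 GFP- libraries, and all 7 were detected in every library. By edgeR 0 of 7 were called over 12 libraries in any comparison, 3 having an unadjusted p under 0.05 for GFP and 3 for treatment in the averaged comparisons, while DESeq2 over 12 libraries called Cd8a for anti-PD-L1 within GFP+ cells and averaged over GFP, and Cd8b1 for GFP averaged over the treatments. Over 10 libraries 2 of 7, Cd8a and Cd8b1, were called lower in GFP+ than in GFP- non-treated cells and also averaged over the treatments. Over the same 10 libraries Cd8a was called higher after anti-PD-L1 within GFP+ cells, and Cd8a and Cd3g were averaged over GFP. The 5 NK cell markers summed to 193 to 227 and 160 to 232 CPM in GFP+ libraries and 113 to 134 and 72.9 to 94.7 CPM in GFP- libraries, without and with anti-PD-L1, and 3 of 5 were called higher in GFP+ cells averaged over the treatments by edgeR over 12 libraries (Klrb1c, Fcer1g and Tyrobp), and 3 of 5 over 10 libraries. For anti-PD-L1 averaged over GFP 1 of 5, Tyrobp, was called lower over 12 libraries (-0.71, adjusted p = 0.027), and 1 of 5 over 10. The 8 macrophage markers summed to 198 to 272 CPM in non-treated GFP+ and 149 to 214 CPM in non-treated GFP- libraries, and to 84.3 to 161 and 74.5 to 129 CPM after anti-PD-L1. Of these, 2 of 8 were called lower after anti-PD-L1 averaged over GFP by edgeR over 12 libraries (Lyz2 and C1qa), and 4 of 8 over 10 libraries.

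The 4 markers of CD4 and regulatory T cells, in which ICOS, OX40 and GITR are typically high, summed to 48.2 to 72.1 CPM in non-treated GFP+, 85.3 to 89.2 CPM in non-treated GFP-, 62.0 to 74.6 CPM in anti-PD-L1 GFP+ and 77.6 to 110 CPM in anti-PD-L1 GFP- libraries. Cd4 itself was at 0 to 0.919 CPM in all libraries, whereas Foxp3 was at 6.44 to 24.9 CPM. Ikzf4 was called lower in GFP+ cells averaged over the treatments over 10 libraries (-0.60, adjusted p = 0.0139, edgeR), against -0.67 over 12 (adjusted p = 0.0538). The 6 dendritic cell markers summed to 84.5, 121 and 86.1 CPM in the non-treated GFP+ libraries KT13, KT15 and KT17 and to 48.5 to 83.7 CPM in the 9 others, Flt3 being at 0 to 0.362 CPM. Of these 6 genes 2 were tested, and for anti-PD-L1 averaged over GFP edgeR called 0 over 12 libraries and 1, H2-Ab1, lower over 10 (-0.71, adjusted p = 0.208, and -0.75, adjusted p = 0.024). The 7 tumor epithelial and stromal markers summed to 74.8, 85.5 and 59.4 CPM in these libraries and to 17.6 to 55.6 CPM in the 9 others. Both lists were thus highest in the non-treated GFP+ libraries, the dendritic sums by a narrow margin (84.5 CPM in KT13 against 83.7 CPM in KT18). The macrophage sums of that group, 198 to 272 CPM, overlapped those of non-treated GFP- libraries, 149 to 214 CPM. Of the tumor and stromal markers 6 were tested over 12 libraries, and for anti-PD-L1 averaged over GFP 0 were called by edgeR, 6 of 6 had a negative log2 fold change and an unadjusted p under 0.05, and the median was -1.07 against -0.01 over all genes. Over 10 libraries 7 were tested, of which 0 were called and 5 had an unadjusted p under 0.05, with a median of -1.47. The share of all genes with such a p is not given for that set. The part of these marker levels in the differences of the costimulatory receptor genes was not tested.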

How the data were processed

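The 12 libraries were 3′ mRNA-seq libraries of sorted CD8+ tumor-infiltrating T cells, grouped by the GFP and treatment given in their labels. The deposited table holds raw read counts per gene, which the authors made from 75 bp single-end reads by trimming, alignment to mm10 and counting of exonic reads. The submitters' processing notes name cutadapt 1.7, HISAT2 and featureCounts of Subread 1.6.4, while the methods of the study name other versions. Strand setting, handling of multiply matching reads and Ensembl release are not given in the sources used here. Reads carry no molecular identifiers, so counts are not independent molecules. Symbols matched 52403 of 52636 identifiers.

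Genes were kept by filterByExpr on the 4 groups (minimum count 10), normalised by TMM and tested in edgeR 4.0.16 under R 4.3.3 with the quasi-likelihood F test in a single fit of all 12 libraries, with Benjamini-Hochberg adjustment over all genes and a threshold of 0.05. Depths of 11292699 to 19023900 counts set the counting precision. Standard errors and 95% intervals came from the same fits. The procedure was tested on simulated data. Within groups no pair of libraries was a copy of another, the chi-square per degree of freedom being at least 11.9.

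All 10 members were named, with Adora2a as a check of the sort. Of the other lists, genes called over 12 or 10 libraries and at most 3 more with small p were eligible, and those bearing on the members were named. Members, lists and the omission of KT13 and KT21 were chosen with earlier results of these data known. Legends of the study give n = 2 for GFP+ cells without naming the libraries. Alternatives were DESeq2 1.42.0, upper-quartile normalisation, other count filters, fits of only the groups compared, and omission of each library. DESeq2 without KT13 and KT21 was added after seeing the data.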

Additional observations from a re-analysis of the deposited data

How the results depend on the processing

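No paired analysis was possible because the groups share no replicate numbers, each library having its own code. Of 846 values of single members, Tnfrsf14 left out, under the alternatives, 810 kept their direction and their side of the threshold, 23 changed direction and 13 passed the threshold that was missed over 12 libraries, all of these 13 for Icos or Cd226. The number of members called, 0 over 12 libraries in each comparison, became 1 (Icos) for GFP+ against GFP- in non-treated cells under DESeq2 with 12 or 10 libraries, and 1 (Icos) for anti-PD-L1 in GFP+ cells and averaged over GFP without KT13 and KT21, under DESeq2 with 12 or 10 libraries and with no filter beyond 1 count. It became 1 (Cd226) for GFP+ against GFP- averaged over treatments with no filter beyond 1 count. Leaving out single libraries gave 0 to 1 members in the 2 treatment comparisons named, the 1 coming without KT21.

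The values counted here that changed direction lay between -0.09 and 0.08 over 12 libraries. These counts hold only part of the averaged values, of which Tnfrsf18 went from 0.16 to -0.05 and Tnfrsf1b from -0.17 to 0.07 for GFP+ against GFP- without KT13 and KT21, and Tnfrsf4 from 0.04 to -0.04 for the treatment. Without KT13 and KT21, by edgeR, Cd27 became 0.09 and Tnfrsf18 -0.10 for GFP+ against GFP- in non-treated cells, and Tnfrsf1b became 0.16 in anti-PD-L1 cells (0.09, -0.10 and 0.15 by DESeq2). When single libraries were left out, GFP+ against GFP- in non-treated cells ranged from -0.18 to 0.09 for Cd27 and from -0.10 to 0.22 for Tnfrsf18, and in anti-PD-L1 cells from -0.14 to 0.10 for Icos, -0.03 to 0.19 for Tnfrsf9 and -0.24 to 0.16 for Tnfrsf1b. Anti-PD-L1 against non-treated ranged from -0.34 to 0.22 for Cd226 and -0.26 to 0.15 for Tnfrsf18 in GFP+ cells, and from -0.02 to 0.13 for Cd27 and -0.06 to 0.22 for Tnfrsf1b in GFP- cells. The cause was not tested.

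The number of genes called rose from 1, 4, 2 and 0 over 12 libraries in the 4 comparisons to 50, 25, 83 and 55 without KT13 and KT21, and to 53, 47, 93 and 33 under DESeq2. With no filter beyond 1 count it was 78, 49, 123 and 60, and when only the 2 groups of a comparison were fitted it was 1, 0, 0 and 51. DESeq2 without KT13 and KT21, chosen after seeing the data, called 131, 64, 142 and 91. Leaving out single libraries gave 0 to 6, 0 to 7, 0 to 34 and 0 to 28, and 13 to 50 (GFP) and 27 to 90 (treatment) in the averaged comparisons. The averaged comparisons went from 44 (GFP) and 56 (treatment) to 159 and 201 without KT13 and KT21, 158 and 181 under DESeq2, 256 and 301 under both, and 204 and 223 with no filter beyond 1 count, and the interaction from 0 to 10 with no filter. Upper-quartile normalisation and a minimum of 10 counts in every library changed no member's call. Tnfrsf14 had 0 to 13 counts per library, against at least 186 for the other members, and the effect of depth on the members was not tested.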
